A study of Homo sapiens with 6 samples.

Results

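The genes that make cholesterol and fatty acids were examined as a set of 33, taken by name from the deposited gene table of 60027 rows. All 33 had a single row and a mean level of at least 1 TPM (a transcript level scaled to gene length and to the total of each library), so all were tested. The set holds 18 enzymes of sterol synthesis, 5 genes of the SREBP system that controls them, the sterol carrier gene STARD4 and 9 enzymes of fatty acid synthesis, activation and desaturation. Polyadenylated RNA was measured in NCI-H292, a human epithelial line grown from a lung mucoepidermoid carcinoma. The long noncoding RNA SH3PXD2A-AS1 was knocked down for 3 libraries, and 3 libraries were of a negative control, which the series text calls a vector control. The labels do not describe the knockdown reagent. They do not speak of separate cultures either, and the p-values therefore reflect the spread between libraries of 1 cell line, which may be technical.

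Cells make cholesterol from acetyl-CoA by the mevalonate pathway, whose isoprenoid intermediates also feed protein prenylation and ubiquinone. When membrane sterol is low, SCAP carries the transcription factors SREBP1 and SREBP2 from the endoplasmic reticulum to the Golgi for cleavage, and INSIG proteins hold the complex back when sterol is plentiful. SREBP2 mainly drives sterol genes, and the SREBP1c form mainly drives fatty acid genes such as FASN, ACACA and SCD. Airway epithelial cells use these lipids for membranes and secretion, and tumour cells often depend on their own fatty acid synthesis.

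The promoter windows of 5 genes are shown because SCD and INSIG1 carried the changes that held under every alternative tried, HMGCS1 and MVK are the called sterol enzymes, and SREBF2 holds the only full sterol element found. Each window runs from 250 bases before to 50 bases after the annotated start, written 5′ to 3′ on the gene's strand, from RefSeq on GRCh38.p14. Capitals mark the sterol regulatory element, the E-box CACGTG and the CCAAT box on either strand. The letters of the sterol regulatory element searched are the longest run of capitals in the SREBF2 window.
SCD (chr10:100346983-100347282, plus strand): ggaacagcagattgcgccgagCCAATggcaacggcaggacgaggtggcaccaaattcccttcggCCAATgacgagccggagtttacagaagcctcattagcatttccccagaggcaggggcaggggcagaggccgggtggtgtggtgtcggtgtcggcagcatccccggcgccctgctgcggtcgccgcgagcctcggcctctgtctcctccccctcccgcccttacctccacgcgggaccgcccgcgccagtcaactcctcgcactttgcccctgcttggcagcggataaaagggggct
INSIG1 (chr7:155297628-155297927, plus strand): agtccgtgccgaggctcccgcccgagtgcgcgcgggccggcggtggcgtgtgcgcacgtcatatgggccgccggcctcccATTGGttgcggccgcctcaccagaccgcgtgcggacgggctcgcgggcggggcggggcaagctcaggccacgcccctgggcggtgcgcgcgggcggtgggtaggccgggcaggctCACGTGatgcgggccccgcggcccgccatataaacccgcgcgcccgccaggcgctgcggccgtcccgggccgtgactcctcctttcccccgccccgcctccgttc
HMGCS1 (chr5:43313363-43313662, minus strand): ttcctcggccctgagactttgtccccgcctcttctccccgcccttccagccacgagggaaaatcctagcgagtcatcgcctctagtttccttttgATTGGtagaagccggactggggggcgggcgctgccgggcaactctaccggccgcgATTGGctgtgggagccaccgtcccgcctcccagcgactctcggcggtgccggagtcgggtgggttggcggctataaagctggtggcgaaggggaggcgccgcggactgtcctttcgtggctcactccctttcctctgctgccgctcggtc
MVK (chr12:109573544-109573843, plus strand): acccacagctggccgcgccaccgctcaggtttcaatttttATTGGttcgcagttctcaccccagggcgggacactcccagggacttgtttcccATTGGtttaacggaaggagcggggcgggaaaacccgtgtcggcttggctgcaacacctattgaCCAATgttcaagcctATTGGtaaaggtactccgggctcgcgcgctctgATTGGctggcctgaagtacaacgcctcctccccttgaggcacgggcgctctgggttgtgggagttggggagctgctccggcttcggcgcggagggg
SREBF2 (chr22:41832855-41833154, plus strand): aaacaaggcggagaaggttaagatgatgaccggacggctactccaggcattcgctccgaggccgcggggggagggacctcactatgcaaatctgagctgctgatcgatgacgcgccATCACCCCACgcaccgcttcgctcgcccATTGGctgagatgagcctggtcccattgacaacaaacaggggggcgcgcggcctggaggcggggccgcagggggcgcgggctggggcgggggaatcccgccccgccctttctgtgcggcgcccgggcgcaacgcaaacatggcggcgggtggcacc

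RefSeq windows were found for 29 of the 33 genes, 43 windows in all because some genes have several starts. SQLE, ACAT2, FDFT1 and FASN had none. The full sterol element stood in 1 of the 43 windows, that of SREBF2, where its first base lay 134 bases before the start, and in 0.0456% of all 35116 windows. Its shorter form TCACNCCAC, which lies within the full element, stood in 2 of the 43 windows, those of SREBF2 and of 1 start of ACSL1, and in 1.13% of all windows. The E-box, which SREBP proteins can also bind, stood in 11.6% of the members' windows, from the genes INSIG1, LSS, SC5D and SCAP, and in 7.26% of all windows. In INSIG1 it began 55 bases before the start. CCAAT boxes, bound by the factor NF-Y, stood in 60.5% of the members' windows and in 34.6% of all windows. MVK had 5 of them, HMGCS1 and SCD 2 each, and INSIG1 and SREBF2 1 each. The MVK window, set by the RefSeq start, begins at base 109573544. The MVK span in the GENCODE 29 annotation begins at base 109573255, so the 5 matches lie inside that span. The GC box GGGCGG, bound by SP1, stood in 83.7% of the members' windows and in 45.0% of all windows. Windows of the same gene can overlap and count the same site again, as for the SC5D E-box. The windows of all genes were not limited to genes expressed here. All motifs were searched on both strands, and a match is a description of the letters only.

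The test called several lipid genes lower in the knockdown libraries and 2 higher. Of the 33 genes, 2 rose (INSIG1 and HMGCS1) and 4 fell (SCD, ACACA, SREBF1 and MVK) in knockdown cells by limma, a linear model whose spread estimates borrow from all genes, at an adjusted p under 0.05 over all 15755 genes tested. That is 18.2% of the members called in either direction, where 14.8% of all genes were called, with 6.06% of the members higher, where 11.3% of all genes tested rose, and 12.1% lower, where 3.47% of all genes fell. The changes were modest: the largest fall of a mean was that of ACACA, to 62.1% of control, and the largest called rise was that of INSIG1, to 128% of control. The median log2 fold change was -0.05 over the members and 0.08 over all genes tested, on the log2(TPM + 1) scale used throughout, knockdown minus control. Of the members, 25 lay below the median of all genes.

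**Figure D1:**
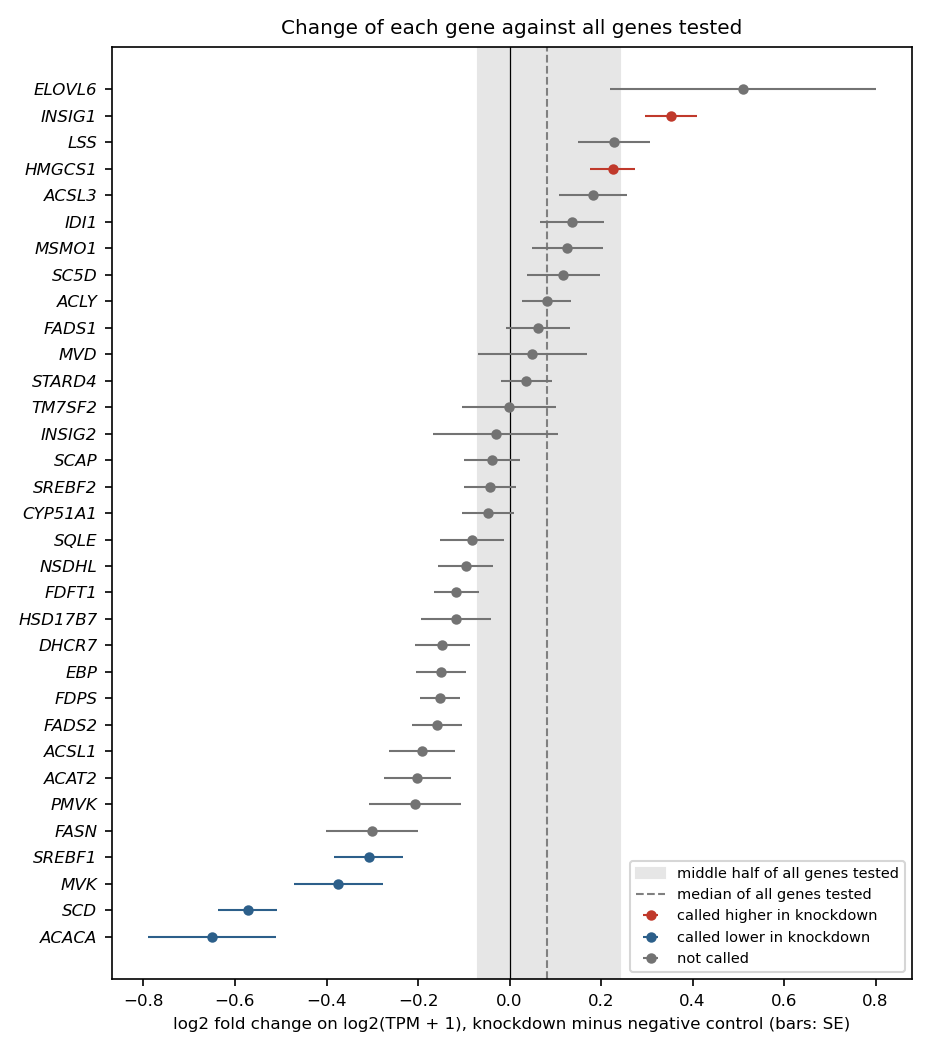
Log2 fold change of each of the 33 genes (log2 of TPM + 1) in knockdown against negative control cells, with bars of 1 standard error. The dashed line is the median of all 15755 genes tested (0.08) and the grey band runs from their lower to their upper quartile, so 25 of the 33 genes sit left of the dashed line and SCD and ACACA lie farthest left.

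The groups did not overlap for 17 of the 33 genes, where 36.5% of all genes tested had no overlap. The knockdown libraries were all lower for 14 genes (42.4%), where 9.66% of all genes tested were lower without overlap, and all higher for 3 genes (9.09%), where 26.8% of all genes were higher. This split depends on the scale. Median ratio scaling, which sets the typical gene to no change, left 1 member called higher (INSIG1; 6.42% of all genes were called higher) and 10 called lower (6.32% of all genes). The 10 were ACAT2, MVK, FDPS, FDFT1, EBP, SREBF1, ACACA, SCD, ACSL1 and FADS2. After that scaling, 18 members were lower without overlap (54.5%, against 17.3% of all genes) and 2 were higher (6.06%, against 16.9%). The groups also differed in the share of TPM taken by genes of mitochondrial DNA. It was 7.20% to 7.40% in knockdown libraries and 10.7% to 10.9% in control libraries. Rescaling TPM with mitochondrial DNA and ribosomal protein genes left out together called 1 member higher and 7 lower (1083 and 865 of all 15755 genes tested). The part of the mitochondrial share alone in these results was not tested.

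**Figure D2:**
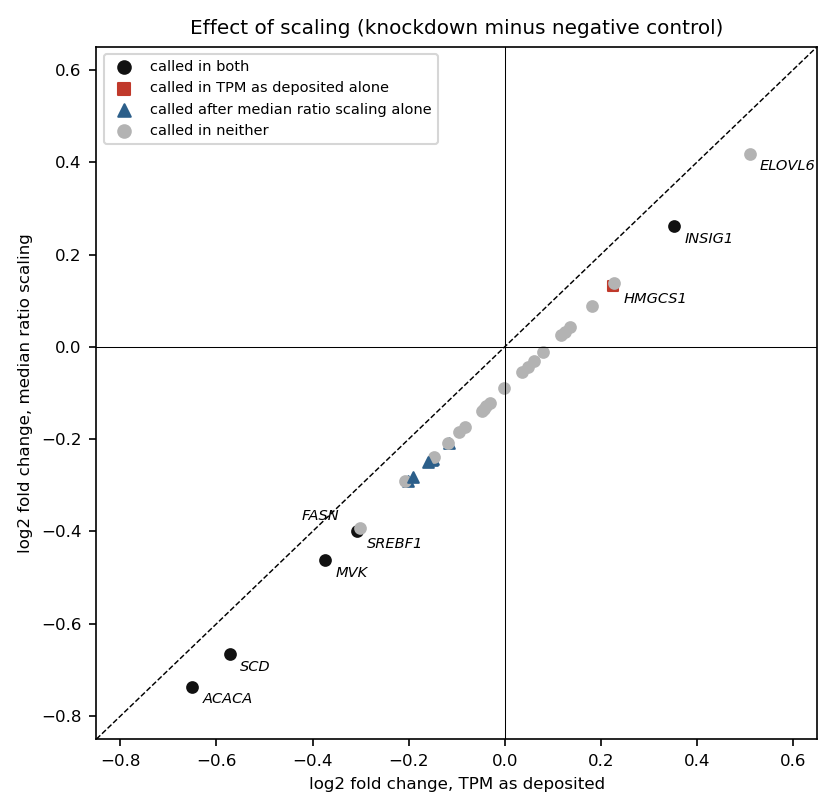
Log2 fold change of each gene in TPM as deposited (horizontal) against median ratio scaling (vertical), knockdown minus negative control, with marker shape and colour for the calls. All points lie below the dashed line of equal values by a near constant amount, HMGCS1 is called in the deposited TPM alone, and INSIG1 is the only gene called higher in both.

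SCD, the stearoyl-CoA desaturase that makes oleate, showed the firmest change. It stood at 142, 140 and 147 TPM in the knockdown libraries, against 195, 216 and 230 TPM in the control libraries. All 3 knockdown libraries were below all 3 controls and close to each other. The mean fell to 143 ± 3.56 TPM in knockdown cells, 67.0% of the 214 ± 17.2 TPM in control cells (SD, n = 3 each; limma log2 fold change -0.57, SE 0.06, adjusted p = 0.00253). SCD was the most abundant of the 33 genes in control cells, while IDI1 and SCD shared the top place in knockdown cells at 143 TPM each. The SCD gene (ENSG00000099194) spans bases 100347124 to 100364834 of chromosome 10 (plus strand, GRCh38, GENCODE 29 annotation). With each of the 6 libraries left out in turn its adjusted p was 0.00484 to 0.0174.

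ACACA, which encodes acetyl-CoA carboxylase, the enzyme that commits acetyl-CoA to fatty acid synthesis, had the largest fall on the log2 scale. It stood at 11.8, 8.73 and 7.87 TPM in the knockdown libraries, against 15.9, 15.4 and 14.3 TPM in the control libraries. The groups did not overlap, and the knockdown libraries differed among themselves more than the controls did, with a coefficient of variation of 21.7% against 5.35%. By limma the log2 difference was -0.65 (SE 0.14, adjusted p = 0.0257). The call was lost without any 1 of the 5 libraries other than knockdown replicate 1, with an adjusted p of at most 0.0918, and stood at 0.00746 without knockdown replicate 1. ACACA (ENSG00000278540) spans bases 37084988 to 37406818 of chromosome 17 (minus strand).

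FASN, the synthase that builds palmitate, did not pass the test. It stood at 108, 99.2 and 83.1 TPM in the knockdown libraries, against 113, 116 and 128 TPM in the control libraries. The knockdown libraries were all lower, by a small margin for replicate 1 (limma log2 fold change -0.30, SE 0.10, adjusted p = 0.0966). ACLY, which supplies acetyl-CoA from citrate, averaged 59.0 ± 2.89 TPM in knockdown cells and 55.7 ± 0.90 TPM in control cells (SD, n = 3 each; limma adjusted p = 0.352). Its exons share 156 bases with the opposite-strand gene AC125257.2, which averaged 104 ± 33 TPM in knockdown cells and 38.6 ± 48.8 TPM in control cells. Reads of the 2 genes cannot be told apart there if strand was not kept, which the sources used here do not say.

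ELOVL6, which lengthens palmitate to stearate, varied most. It stood at 43.2, 26.9 and 64.1 TPM in the knockdown libraries, against 24.7, 33.2 and 30.6 TPM in the control libraries. Knockdown replicate 2 lay within the control range and knockdown replicate 3 far above it, and the coefficient of variation was 41.7% in knockdown and 14.7% in control libraries. The change was not called (limma log2 fold change 0.51, SE 0.29, adjusted p = 0.288). Of the desaturases that act on polyunsaturated fatty acids, FADS2 averaged 42.4 ± 1.97 TPM in knockdown cells and 47.4 ± 1.47 TPM in control cells (limma adjusted p = 0.108). FADS1 averaged 47.3 ± 3.54 TPM in knockdown cells and 45.3 ± 2.02 TPM in control cells (limma adjusted p = 0.6). The groups did not overlap for FADS2 and overlapped for FADS1. These neighbouring genes share 490 exon bases on opposite strands. Of the long-chain acyl-CoA synthetases, which activate fatty acids, ACSL1 averaged 32.5 ± 2.37 TPM in knockdown cells and 37.2 ± 2.07 TPM in control cells (limma adjusted p = 0.13). ACSL3 averaged 127 ± 8.91 TPM in knockdown cells and 111 ± 8.31 TPM in control cells (limma adjusted p = 0.157). The 9 fatty acid genes together summed to 585 to 613 TPM in knockdown libraries and 633 to 702 TPM in control libraries, without overlap, and SCD made up most of that gap. Their median log2 fold change was -0.16, with 2 falls (22.2%, where 3.47% of all genes tested fell) and no call upward (11.3% of all genes rose). With 9 genes, these shares rest on SCD and ACACA alone.

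**Figure D3:**
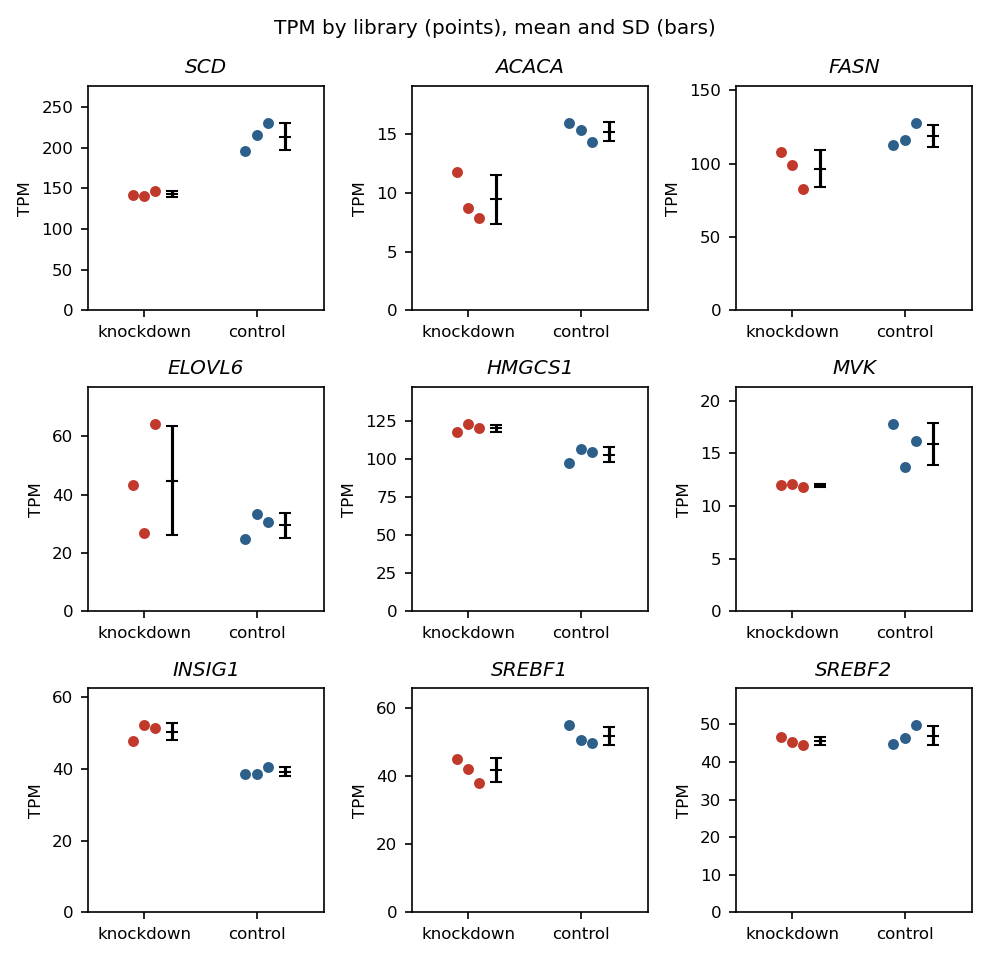
TPM of 9 genes in each library, knockdown left and control right, with the mean and SD of each group beside the points and axes that start at 0. The knockdown points lie below all controls for SCD, ACACA, FASN, MVK and SREBF1 and above them for HMGCS1 and INSIG1, while ELOVL6 and SREBF2 overlap.

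Among the control genes of the pathway, INSIG1 rose and SREBF1 fell while their relatives did not pass the test. INSIG1, which encodes an anchor that retains SCAP and is itself a sterol-regulated gene, stood at 47.7, 52.1 and 51.5 TPM in the knockdown libraries, against 38.6, 38.5 and 40.6 TPM in the control libraries. The lowest knockdown library was well above the highest control. By limma it rose by 0.35 on the log2 scale (SE 0.06, adjusted p = 0.00924), with an adjusted p of 0.0124 to 0.0422 when each library was left out in turn. INSIG1 (ENSG00000186480) spans bases 155297776 to 155310235 of chromosome 7 (plus strand). INSIG2, the second anchor gene, averaged 29.5 ± 4.0 TPM in knockdown cells and 30.2 ± 4.58 TPM in control cells, with overlap (SD, n = 3 each; limma adjusted p = 0.909).

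SREBF1, which encodes the SREBP1 forms, stood at 45.1, 42.1 and 38.0 TPM in the knockdown libraries, against 55.0, 50.6 and 49.9 TPM in the control libraries. All knockdown libraries were lower, and the mean fell to 80.5% of control (limma log2 fold change -0.31, SE 0.08, adjusted p = 0.0397). The gene table does not separate the SREBP1a and SREBP1c transcripts, and 556 exon bases are shared with RAI1 on the opposite strand. The call was lost without any 1 of the 5 libraries other than knockdown replicate 1, with an adjusted p of up to 0.114, and held without knockdown replicate 1 (adjusted p = 0.0368). SREBF1 (ENSG00000072310) spans bases 17810399 to 17837002 of chromosome 17 (minus strand).

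SREBF2, which encodes SREBP2, stood at 46.7, 45.3 and 44.6 TPM in the knockdown libraries, against 44.7, 46.4 and 49.7 TPM in the control libraries. The groups overlapped (limma log2 fold change -0.04, SE 0.06, adjusted p = 0.653). SCAP, the escort protein gene, stood at 25.5, 24.0 and 22.9 TPM in the knockdown libraries, against 25.3, 24.2 and 24.9 TPM in the control libraries, also with overlap (limma log2 fold change -0.04, SE 0.06, adjusted p = 0.717). STARD4, which encodes a cytosolic sterol carrier, averaged 36.3 ± 1.85 TPM in knockdown cells and 35.3 ± 0.374 TPM in control cells (limma adjusted p = 0.699). RNA levels do not show how much SREBP protein was cleaved.

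Of the 18 enzymes of sterol synthesis, 1 rose and 1 fell (5.56% each, where 11.3% of all genes tested rose and 3.47% fell). HMGCS1, which makes HMG-CoA at its entry, stood at 118, 122 and 120 TPM in the knockdown libraries, against 97.1, 106 and 105 TPM in the control libraries. All knockdown libraries were higher, and the mean was 117% of control (limma log2 fold change 0.23, SE 0.05, adjusted p = 0.0272). That rise was no longer called after median ratio scaling (log2 fold change 0.13, adjusted p = 0.11). It was also lost without any 1 of the 5 libraries other than knockdown replicate 1 (adjusted p of at most 0.0891), and stood at 0.0498 without that library. HMGCS1 (ENSG00000112972) spans bases 43289395 to 43313512 of chromosome 5 (minus strand).

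MVK, the mevalonate kinase gene, stood at 12.03, 12.07 and 11.78 TPM in the knockdown libraries, against 17.7, 13.7 and 16.2 TPM in the control libraries. The knockdown libraries were nearly equal and all below the controls, which were spread more widely (limma log2 fold change -0.37, SE 0.10, adjusted p = 0.0468). The call was lost without any 1 library other than negative control replicate 2, with an adjusted p of up to 0.135, and stood at 0.0289 without negative control replicate 2. MVK (ENSG00000110921) spans bases 109573255 to 109598117 of chromosome 12 (plus strand). Its exons share 306 bases with MMAB, an opposite-strand gene for a cobalamin enzyme, which averaged 18.6 ± 3.19 TPM in knockdown cells and 26.5 ± 2.01 TPM in control cells (SD, n = 3 each). The part of shared reads in the MVK value was not tested.

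The other steps toward squalene did not pass the test. PMVK, the next kinase, averaged 8.23 ± 1.05 TPM in knockdown cells and 9.61 ± 0.278 TPM in control cells, the lowest level of the set in both groups. MVD, the decarboxylase that follows, averaged 74.5 ± 11.6 TPM in knockdown cells and 71.5 ± 4.89 TPM in control cells. IDI1, the isopentenyl diphosphate isomerase gene, averaged 143 ± 10.5 TPM in knockdown cells and 130 ± 7.37 TPM in control cells. The control libraries lay above the knockdown libraries for PMVK without overlap, while MVD and IDI1 overlapped (limma adjusted p = 0.223, 0.819 and 0.241 for PMVK, MVD and IDI1). FDPS, which makes farnesyl diphosphate, averaged 136 ± 3.34 TPM in knockdown cells and 152 ± 5.4 TPM in control cells (limma adjusted p = 0.0673). FDFT1, the squalene synthase gene, averaged 89.8 ± 4.08 TPM in knockdown cells and 97.3 ± 1.81 TPM in control cells (limma adjusted p = 0.163). ACAT2, the cytosolic thiolase gene ahead of HMGCS1, averaged 17.5 ± 0.871 TPM in knockdown cells and 20.3 ± 1.42 TPM in control cells (limma adjusted p = 0.12). These 3 were lower without overlap, and each was called after median ratio scaling. ACAT2 exons share 1141 bases with SOD2 and 397 bases with TCP1 on the opposite strand, so its level is uncertain. SOD2 averaged 65.2 ± 2.16 TPM in knockdown cells and 64.0 ± 5.19 TPM in control cells. TCP1 averaged 110 ± 3.49 TPM in knockdown cells and 123 ± 11.4 TPM in control cells. The part of shared reads in the ACAT2 value was not tested.

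From squalene to cholesterol, no enzyme of the set passed the test. SQLE, a rate-limiting squalene epoxidase gene, averaged 40.7 ± 2.73 TPM in knockdown cells and 43.2 ± 2.33 TPM in control cells. LSS, which closes the sterol rings, averaged 25.2 ± 2.41 TPM in knockdown cells and 21.3 ± 0.540 TPM in control cells. CYP51A1, the lanosterol demethylase gene, averaged 35.1 ± 0.871 TPM in knockdown cells and 36.3 ± 1.75 TPM in control cells. Of its 3584 exon bases, 2844 are shared with AC000120.2 on the same strand. AC000120.2 averaged 0.377 ± 0.163 TPM in knockdown cells and 0.347 ± 0.323 TPM in control cells. The part of shared reads in the CYP51A1 value was not tested. LSS was higher in every knockdown library than in any control, whereas SQLE and CYP51A1 overlapped (limma adjusted p = 0.102 for LSS, 0.475 for SQLE and 0.617 for CYP51A1). MSMO1, the methylsterol oxidase gene, averaged 137 ± 11.0 TPM in knockdown cells and 126 ± 9.12 TPM in control cells. SC5D, a sterol desaturase gene, averaged 35 ± 1.84 TPM in knockdown cells and 32.2 ± 3.0 TPM in control cells. Both overlapped between groups (limma adjusted p = 0.322 for MSMO1 and 0.375 for SC5D). EBP, the sterol isomerase gene, averaged 62.9 ± 3.22 TPM in knockdown cells and 69.9 ± 2.33 TPM in control cells. DHCR7, a late sterol reductase gene, averaged 63.3 ± 4.55 TPM in knockdown cells and 70.1 ± 0.216 TPM in control cells. NSDHL, a demethylating dehydrogenase gene, averaged 18.4 ± 0.663 TPM in knockdown cells and 19.7 ± 0.589 TPM in control cells. These 3 were lower without overlap and not called (limma adjusted p = 0.12 for EBP, 0.153 for DHCR7 and 0.335 for NSDHL). HSD17B7, a ketosteroid reductase gene, averaged 24.2 ± 0.601 TPM in knockdown cells and 26.4 ± 2.43 TPM in control cells, with overlap. Its pseudogene HSD17B7P2, which could share its reads, averaged 2.50 TPM in knockdown cells and 2.15 TPM in control cells. TM7SF2, a sterol reductase gene, averaged 18.3 ± 0.663 TPM in knockdown cells and 18.4 ± 2.61 TPM in control cells, with overlap.

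**Figure D4:**
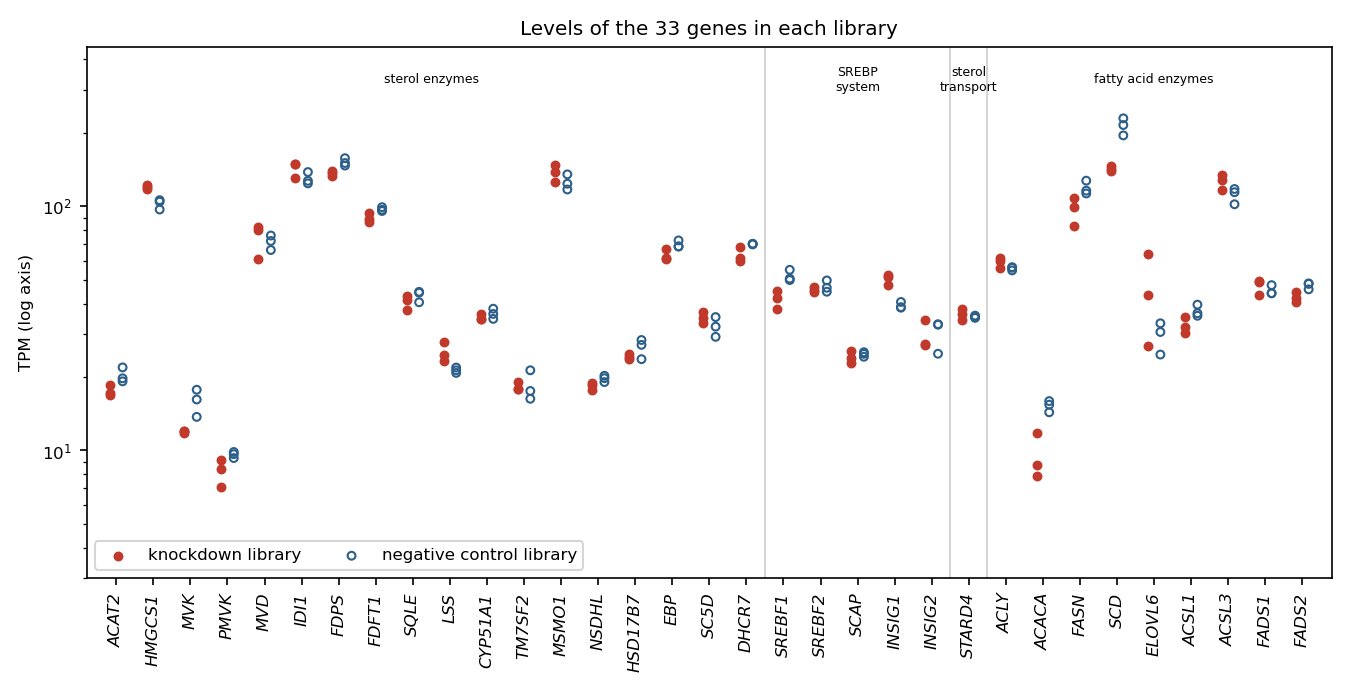
TPM of all 33 genes in each of the 6 libraries on a log axis, grouped by role, with knockdown libraries as filled points left of the open control points. Group means ran from 8.23 to 143 TPM in knockdown cells and from 9.61 to 214 TPM in control cells, and ELOVL6 shows the widest scatter.

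In the TPM as deposited, the 18 sterol enzymes summed to 1047 to 1083 TPM in knockdown libraries and 1036 to 1092 TPM in control libraries. The groups overlapped on that scale. Abundant enzymes on both sides of 0 made up that sum: HMGCS1, IDI1 and MSMO1 had higher means in knockdown cells, and FDPS, FDFT1, EBP and DHCR7 lower ones. Across the 18, the median log2 fold change was -0.09, with 8 genes lower without overlap (44.4%, where 9.66% of all genes tested were) and 2 higher without overlap (11.1%, where 26.8% of all genes were). After median ratio scaling the median was -0.18. Of the 18, 5 were then called lower (6.32% of all genes were) and 0 higher (6.42% of all genes were). The sum was not computed after that scaling. Over all 33 genes the median coefficient of variation within a group was 5.27% in knockdown libraries and 5.35% in control libraries. Of the 33 genes, 16 share exon bases with another annotated gene, 15 of them with a gene on the opposite strand, so their levels carry that uncertainty.

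Other lipid genes were read from 8 lists with 151 genes, of which 138 were tested, 12 rose and 10 fell. That is 8.7% higher, below the 11.3% of all genes tested that rose, and 7.25% lower, where 3.47% of all genes fell. After median ratio scaling 5 rose (3.62%, against 6.42% of all genes) and 17 fell (12.3%, against 6.32%). Counts of a few genes in the single lists are read against these shares, and no list was tested as a whole. Among 9 tested genes of further sterol synthesis enzymes, PGRMC1, a heme-binding partner of P450 enzymes, was the only rise, with 69.2 ± 1.51 TPM in knockdown cells and 60.2 ± 0.836 TPM in control cells. The PGRMC1 rise was lost after median ratio scaling (adjusted p = 0.149) and without any 1 of 5 libraries (adjusted p of up to 0.0889), holding at 0.0448 without knockdown replicate 1. In the isoprenoid branch, which makes prenyl groups, ubiquinone and dolichol, 1 of 12 genes rose (8.33%, against 11.3% of all genes) and none fell. That gene was RCE1, a protease that trims prenylated proteins, with 41.0 ± 2.59 TPM in knockdown cells and 33.8 ± 1.25 TPM in control cells. Its call was lost without any single library (adjusted p of 0.0553 to 0.113) and after median ratio scaling (adjusted p = 0.144).

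Among 16 tested genes of SREBP processing and sterol-driven enzyme degradation, 1 fell (6.25%, against 3.47% of all genes) and none rose. RNF145, a sterol-sensing ubiquitin ligase gene, fell to 55.5 ± 2.32 TPM in knockdown cells, against 70.9 ± 1.83 TPM in control cells (limma log2 fold change -0.35, adjusted p = 0.00694). Of 21 genes of cholesterol uptake, transport and efflux, 3 fell (14.3%, against 3.47% of all genes) and none rose. NPC2, the lysosomal cholesterol-binding protein gene, fell to 544 ± 27.0 TPM in knockdown cells, against 665 ± 23.3 TPM in control cells. ABCG1, a sterol exporter gene and LXR target, fell to 5.30 ± 0.554 TPM in knockdown cells, against 8.03 ± 0.861 TPM in control cells. TMEM97, a sterol-regulated gene whose protein binds NPC1, fell to 9.69 ± 0.0839 TPM in knockdown cells, against 13.9 ± 1.23 TPM in control cells. The 3 adjusted p-values by limma were 0.0112, 0.0257 and 0.0119. The NPC2 call was lost without negative control replicate 3 (adjusted p = 0.0531). The TMEM97 call was lost without negative control replicate 2 or 3 (adjusted p of up to 0.054). The ABCG1 call was lost without knockdown replicate 1 or 2 or negative control replicate 1 or 3 (adjusted p of up to 0.0891). CH25H, an interferon-induced enzyme that makes an oxysterol which restrains SREBP processing, rose at a low level. It stood at 2.36, 2.88 and 1.6 TPM in the knockdown libraries, against 0.48, 0.30 and 0.42 TPM in the control libraries. The control mean of 0.40 TPM lay under the filter of 1 TPM. CH25H therefore entered the test only through the knockdown libraries, with a mean of 2.28 TPM. It was also called without a filter, and the alternative filter at a mean of 5 TPM left it untested. No libraries overlapped (limma log2 fold change 1.21, SE 0.20, adjusted p = 0.0109), and it was the only call among 3 tested of 8 oxysterol enzyme genes.

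Of 27 tested genes for further steps of synthesis, activation and elongation, 2 rose (7.41%, against 11.3% of all genes) and none fell. SCD5, the second human stearoyl-CoA desaturase gene, rose to 47.6 ± 0.918 TPM in knockdown cells, against 36.1 ± 0.675 TPM in control cells (limma log2 fold change 0.39, SE 0.05, adjusted p = 0.00332). SCD and SCD5 therefore moved in opposite directions in the same libraries. ELOVL4, an elongase gene for very long chains, had 12.4 ± 1.02 TPM in knockdown cells and 9.32 ± 0.671 TPM in control cells (limma adjusted p = 0.0373). Its call was lost after median ratio scaling (adjusted p = 0.0699) and without any 1 of 5 libraries (adjusted p of up to 0.12), holding at 0.0413 without knockdown replicate 1. Of 25 tested fatty acid oxidation genes, 3 rose (12%, near the 11.3% of all genes) and 4 fell (16%, where 3.47% of all genes fell). HADHA, a subunit of the mitochondrial trifunctional protein, fell to 58.1 ± 1.52 TPM in knockdown cells, against 81.4 ± 2.83 TPM in control cells (limma adjusted p = 0.0018). ECI2, an enoyl-CoA isomerase gene, fell to 60.6 ± 3.58 TPM in knockdown cells, against 76.9 ± 3.13 TPM in control cells (limma adjusted p = 0.0136), a call lost without negative control replicate 2 or 3 (adjusted p of up to 0.0548). ACADVL, which starts oxidation of very long chains, rose to 632 ± 17.0 TPM in knockdown cells, against 477 ± 19.4 TPM in control cells (limma adjusted p = 0.00223). PPARD, a lipid-sensing nuclear receptor gene, rose to 80.7 ± 3.81 TPM in knockdown cells, against 58.8 ± 2.00 TPM in control cells (limma adjusted p = 0.00332).

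Of 25 tested genes for triglyceride and phospholipid synthesis and lipid droplets, 4 rose (16%, where 11.3% of all genes rose) and 1 fell (4%, near the 3.47% of all genes). Median ratio scaling gave 1 rise (4%, against 6.42% of all genes) and 3 falls (12%, against 6.32%). MGLL, the monoglyceride lipase gene, rose to 92.8 ± 4.35 TPM in knockdown cells, against 67.2 ± 1.22 TPM in control cells (limma log2 fold change 0.46, SE 0.05, adjusted p = 0.00236). AGPAT2, an acyltransferase gene of glycerolipid synthesis, had 57.2 ± 4.74 TPM in knockdown cells and 44.4 ± 2.93 TPM in control cells. LPIN3, a phosphatidate phosphatase gene, had 19.1 ± 0.945 TPM in knockdown cells and 13.9 ± 1.58 TPM in control cells. HILPDA, a hypoxia-induced lipid droplet gene, fell to 14.2 ± 1.52 TPM in knockdown cells, against 19.3 ± 0.902 TPM in control cells. The limma adjusted p was 0.0277 for AGPAT2, 0.0238 for LPIN3 and 0.0261 for HILPDA. Without single libraries these 3 calls were lost in 5, 5 and 4 of 6 cases, at adjusted p-values of up to 0.0865 for AGPAT2, 0.0839 for LPIN3 and 0.0907 for HILPDA. The AGPAT2 and LPIN3 calls were lost after median ratio scaling (adjusted p = 0.085 and 0.0637).

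**Figure D5:**
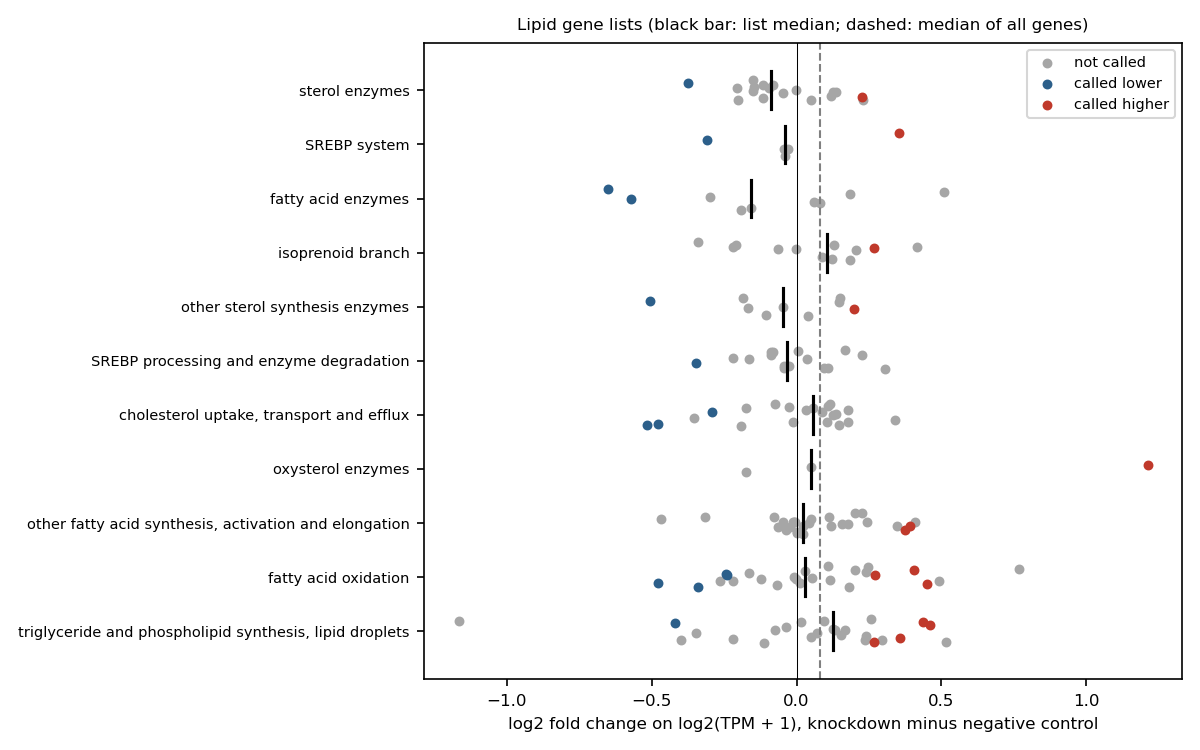
Log2 fold change of each tested gene, knockdown minus negative control, in 3 groups of the set (top) and 8 further lipid lists, coloured by call, with a black bar at each list's median and a dashed line at the median of all genes. The fatty acid enzymes of the set have the lowest median (-0.16), and CH25H stands alone at the right (1.21).

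Facts of the whole series bear on all of these values. SH3PXD2A-AS1 itself was low, at 0.497 ± 0.163 TPM in knockdown libraries and 0.740 ± 0.225 TPM in control libraries (SD, n = 3 each). A two-sided exact permutation test of that difference returned p = 0.2 (with 3 libraries against 3 it cannot go below 0.1), so the labels could not be checked by the level of the targeted RNA. TPM keeps no sequencing depth, so no counting interval can be given, and 15432 to 15883 genes per library reached 1 TPM. All 8 epithelial markers (KRT7, KRT8, KRT18, KRT19, EPCAM, CDH1, CLDN4 and MUC1) were expressed. Their summed level was 4462 to 4650 TPM in knockdown libraries and 3674 to 3799 TPM in control libraries. By limma, 5 of the 8 were called higher in knockdown cells (62.5%, where 11.3% of all genes tested rose). Of 12 markers of leukocytes, endothelium, fibroblasts, hepatocytes, adipocytes and alveolar cells, COL1A1 alone had a mean of at least 1 TPM. COL1A2 reached 1.05 TPM in knockdown replicate 3, and PTPRC and ADIPOQ were listed at 0 in every library. The 12 summed to 23.9 to 27.3 TPM in knockdown libraries and 20.3 to 23.2 TPM in control libraries, without overlap, and the part of these markers in the lipid results was not tested.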

How the data were processed

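Levels were taken from 1 table of TPM values deposited by the authors for 6 libraries. The tools listed in the submitters' processing notes are fastp, HISAT and RSEM (versions not given in the sources used here). Those notes list GRCm38.p5, a mouse build, whereas 58883 of the 60027 gene IDs are Ensembl IDs and the members' IDs are human. No coordinates were taken from the table: positions come from GENCODE 29 on GRCh38 by Ensembl ID. 1 line of the table was empty and was not used. The gene lengths in bases that the deposited table also gives entered no test.

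Genes with a mean of at least 1 TPM (15755) were tested on log2(TPM + 1) in limma 3.58.1 under R 4.3.3, the prior variance allowed to vary with mean level, without covariates, two-sided, with Benjamini-Hochberg adjustment over all of them and calls at an adjusted p under 0.05. This scale understates changes of low genes. The fit was checked on simulated data without a shift of the typical gene, so that check does not bear on how calls depend on scaling. The 33 members, the lipid lists and the tests were chosen with earlier results of these data known. Members called, plus INSIG1, SREBF1, SREBF2, SCAP, HMGCS1, FASN and SCD, were named with every library's value, and up to 4 called genes with the smallest p from each further list, plus CH25H. ELOVL6, the genes that share exon bases and the motif matches were singled out after their values were seen. Alternatives were another pseudocount, filter, scaling, spread model, library weights, a replicate block and leaving out each library. Python 3.11.15 with pandas 2.3.3 and matplotlib 3.10.9 were used for summaries and figures. From the further lists, 1 gene that the rule would name is not reported here.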

Additional observations from a re-analysis of the deposited data

How the results depend on the processing

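SCD and INSIG1 were called in all 15 alternatives. The count of members called higher was 2 in the deposited TPM and 1 after each of 3 scalings (median ratio, quantile, and TPM rescaled with mitochondrial DNA and ribosomal protein genes left out) and without a trend in the prior spread; it was 1 to 2 with single libraries left out. The count called lower was 4, against 10 after median ratio scaling or quantile normalization, 7 after the rescaling, 1 without a filter, 2 without a trend, and 1 to 4 with single libraries left out. For all genes, 1780 rose and 547 fell, against 1136 and 339 without a filter, 1012 and 996 with the median ratio, 1001 and 980 with quantiles, 1083 and 865 with the rescaling, and 867 to 1267 and 246 to 366 with single libraries left out. In the 8 further lists, 12 rose and 10 fell, against 7 rises without a filter, 5 and 17 after median ratio scaling or quantile normalization, 5 rises after the rescaling, 8 rises without a trend, and 5 to 8 and 4 to 9 with single libraries left out. Correlations of deviations between libraries of equal replicate number were 0.017, -0.012 and 0.045 for numbers 1, 2 and 3. Knockdown libraries 1 and 3 correlated best with the control of their own number, and knockdown library 2 did not. Values this small cannot settle whether the numbers pair the libraries. With the replicate block 1123 genes rose and 343 fell, 2 members rose and 3 fell, and 8 genes of the further lists rose and 8 fell. The SH3PXD2A-AS1 difference, knockdown minus control, was -0.24 TPM, -0.29 after median ratio scaling and -0.36 to -0.13 with single libraries left out. Signs turned for 6 members that were not called. MVD was at -0.043 with the median ratio, -0.030 with quantiles, -0.028 with the rescaling, -0.027 with array weights, and -0.028 to 0.18 with single libraries left out. With the 3 scalings in that order STARD4 was at -0.054, -0.053 and -0.040 and FADS1 at -0.030, -0.022 and -0.016, and ACLY was at -0.011 with the median ratio. With single libraries left out TM7SF2 was at -0.079 to 0.10 and INSIG2 at -0.16 to 0.035. The cause of these shifts was not tested. A library left out leaves 2 in its group. TPM keeps no depth, so the limit it sets on low genes such as CH25H is unknown.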
